A study of Mus musculus with 7 samples.

Results

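The transcripts of 8 lysosomal cathepsins (Ctsa, Ctsb, Ctsc, Ctsd, Ctsh, Ctsl, Ctss and Ctsz) and of cystatin C (Cst3), an inhibitor of cysteine cathepsins, were followed in mouse granulocytes that were knockout (KO, n = 3) or wild type (WT, n = 4) for Alox15. The 9 genes were chosen by symbol and each matched 1 of the 51789 rows of the count table. All 9 passed the filter on low counts and were tested. Granulocytes are the leukocytes that include neutrophils, eosinophils and basophils, and Alox15 encodes a lipoxygenase that oxidises polyunsaturated fatty acids. All 7 libraries carried the label untreated and came from polyA RNA, read near the 3′ ends of transcripts with a Lexogen QuantSeq kit. The sources used here do not give the mouse strain, the age, the tissue, how cells were sorted, or which stretch of Alox15 is deleted.

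Cathepsins are proteases that work mainly in the acid interior of lysosomes, where they break down engulfed and recycled proteins. They are made as inactive pro-forms, carried to the lysosome by mannose 6-phosphate receptors, and activated there by trimming. Macrophages and other phagocytes are rich in them. Cystatin C is secreted and blocks cysteine cathepsins that leave the lysosome, while cathepsin D, an aspartic protease, and cathepsin A, a serine carboxypeptidase, are not its targets.

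The libraries held 5250060, 3228292 and 5348256 counts in KO 1 to 3 and 3606843, 5657192, 4981010 and 3907353 counts in WT 1 to 4. Levels are given in CPM, the counts of a gene scaled to a common library size with TMM factors. Since the kit reads 1 end of each transcript, they are not divided by length. Levels of a gene, and sums, ratios and shares over several genes, are compared between libraries. They do not give exact amounts of 1 gene against another. Mature neutrophil transcripts were present in every library, but the summed level of the 14 neutrophil markers ran from 2335 to 24550 CPM in KO and from 2899 to 29987 CPM in WT, lowest in KO 3 and WT 2. These were also the libraries with the highest summed T cell markers, at 2065 CPM in KO 3 and 1514 CPM in WT 2. Eosinophil markers were low, with a summed level of 1.17 to 13.6 CPM in KO and 1.253 to 17.3 CPM in WT. Of the 5, Siglecf and Ccr3 were tested and Epx, the eosinophil peroxidase gene, had 0 counts in all 7 libraries. Alox15 does not check the genotype labels, because it had 1 count in KO 1 and 0 counts in each of the other 6 libraries, both KO and WT. KO 2 and KO 3 differed from the other 5 libraries in the stem of the sample description and in sex-linked transcripts, with Xist at 382 and 102 CPM in KO 2 and KO 3, against 1.75 CPM in KO 1 and 0.896 to 6.11 CPM in WT, so sex, description stem and genotype cannot be fully told apart.

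The start regions of 7 of the 9 genes were searched in RefSeq windows of the GRCm38.p6 build, for the sequence CACGTG, which the lysosomal regulator TFEB is known to bind, and for GAGGAAGT, a form of the site of the myeloid factor PU.1, on both strands. Ctsb and Ctsh were not matched. The 30-base stretches around the matches are shown because they are what the genes' start regions share and do not share. Letters run 5′ to 3′ on the gene's strand, with the match in capitals (ACTTCCTC is GAGGAAGT on the other strand). TCACGTG, a longer form read as CACGTGA on the other strand, overlaps CACGTG.
Ctsa, chr2:164833757-164833786, plus strand: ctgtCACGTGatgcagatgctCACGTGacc
Ctsd, chr7:142388048-142388077, minus strand: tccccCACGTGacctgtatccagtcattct
Ctsd, chr7:142387908-142387937, minus strand: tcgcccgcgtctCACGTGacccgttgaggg
Ctsl, chr13:64370739-64370768, minus strand: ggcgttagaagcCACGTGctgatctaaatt
Ctsc, chr7:88277923-88277952, plus strand: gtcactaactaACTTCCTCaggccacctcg
Ctss, chr3:95526773-95526802, plus strand: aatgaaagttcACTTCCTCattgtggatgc
CACGTG was found in 3 of the 8 windows of these genes (Ctsa has 2 windows), against 7.15% of all 32851 windows, and TCACGTG in 2 of the 8, those of Ctsa and Ctsd, against 3.77%. GAGGAAGT was found in 2 of the 8, those of Ctsc and Ctss, against 3.2%. None of these windows held both CACGTG and GAGGAAGT, and the windows of Cst3 and Ctsz held neither.

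The comparison of KO with WT asked whether these transcripts depend on Alox15 genotype. None of the 9 genes passed the test in edgeR (quasi-likelihood F test, adjusted p = 0.99995 for each), against a background of 0% of 12506 tested genes, and none had an unadjusted p under 0.05, against 1.23%. The KO and WT values overlapped for all 9, where 3.13% of all tested genes did not overlap. The median log2 fold change of the 9 genes was 0.45, against 0.01 over all tested genes, and 8 of 9 lay above 0, as did 51.4% of all tested genes. The 95% intervals of 8 of the 9 genes, all but Ctsl, reached above 1 on the log2 scale, so a level 2 times higher in KO lay inside them. Those of Ctsa and Cst3 also reached below -1 (to -1.40 and -1.30), so a level 2 times lower in KO lay inside these as well. Levels varied widely between libraries: the highest of the 7 exceeded the lowest by a median of 5.15-fold over the 9 genes, against 2.65-fold over the 8987 tested genes whose log2 CPM averaged 3 or more. KO 1 was the highest of the 7 libraries for 7 of the 9 genes, and KO 3 and WT 2 were the lowest pair for 8 of the 9, all but Ctsl.

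**Figure D1:**
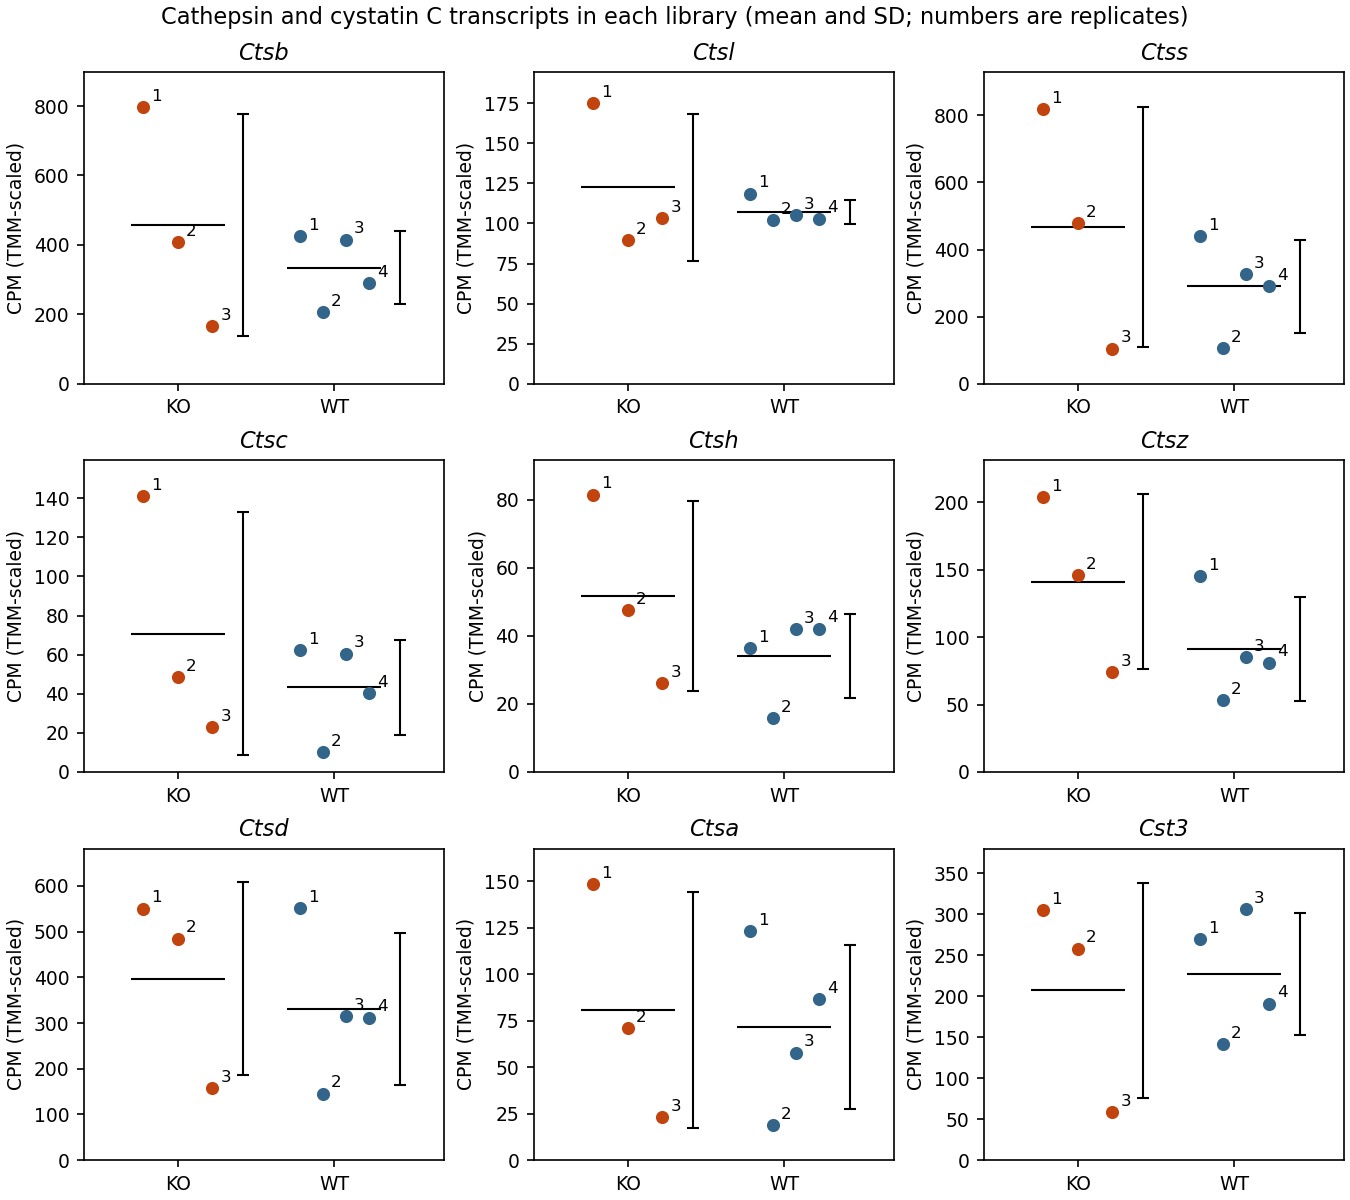
CPM of each gene (vertical axis, from 0) in KO (left, red) and WT (right, blue) libraries, with the replicate number beside each point, the group mean as a line and the SD as a bar. KO 1 stands above the 4 WT libraries for 7 genes, while KO 3 and WT 2 are the lowest pair for 8 genes. Ctsl has the narrowest range.

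Among the cysteine endopeptidases, Ctsb (ENSMUSG00000021939, chromosome 14, 63122462 to 63145923, plus strand, GRCm38), which also removes dipeptides from protein ends, stood at 798, 408 and 166 CPM in KO 1 to 3, against 425, 206, 415 and 290 CPM in WT 1 to 4. The KO values surrounded the whole WT range, and the log2 fold change was 0.45 ± 0.50 (SE, edgeR), with a 95% interval of -0.66 to 1.56.

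Ctss (ENSMUSG00000038642, chromosome 3, 95526786 to 95556403, plus strand) encodes the protease that cuts the invariant chain from MHC class II molecules in antigen-presenting cells. It stood at 818, 478 and 105 CPM in KO and at 440, 106, 328 and 290 CPM in WT. KO 1 and KO 2 lay above every WT library and KO 3 just below WT 2. The log2 fold change was 0.68 ± 0.66 (SE), with a 95% interval of -0.81 to 2.18, and it was 0.00074 without KO 1.

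Ctsl (ENSMUSG00000021477, chromosome 13, 64359337 to 64370890, minus strand) had the narrowest range of the 9 genes. It encodes a broad endopeptidase, known also for its part in antigen processing in the thymus. It stood at 175, 89.4 and 103 CPM in KO and at 119, 102, 105 and 103 CPM in WT, a range of 1.96-fold over all 7 libraries, where the other 8 genes spanned 3.79-fold (Ctsd) to 13.6-fold (Ctsc). KO libraries averaged 123 ± 45.9 CPM (SD, n = 3) and WT libraries 107 ± 7.72 CPM (SD, n = 4), and of the KO libraries KO 1 alone was above the WT range. Its 95% interval was the narrowest of the 9, -0.45 to 0.84 around a log2 fold change of 0.19.

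The exopeptidases Ctsc, Ctsh and Ctsz, which trim residues from protein ends, had positive log2 fold changes that did not pass. Ctsc (ENSMUSG00000030560, chromosome 7, 88278085 to 88310888, plus strand) encodes dipeptidyl peptidase I, the enzyme that activates granule serine proteases of neutrophils and lymphocytes. It stood at 141, 48.4 and 22.98 CPM in KO and at 62.2, 10.3, 60.6 and 40.2 CPM in WT, so that KO 1 lay above all WT libraries and KO 2 and KO 3 within their range (log2 fold change 0.71 ± 0.70, SE). Its serine protease targets were scarce: Elane, Gzmc and Mcpt8 had 0 counts in all libraries, Ctsg had 1 count in KO 2 alone, and of the 10 listed targets Gzma and Prss57 were tested. Gzma, a granzyme of cytotoxic lymphocytes, stood at 31.1, 54.5 and 96.01 CPM in KO and 24.2, 67.5, 53.8 and 80.7 CPM in WT, highest in KO 3, where Ctsc was lowest among KO libraries.

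Ctsh (ENSMUSG00000032359, chromosome 9, 90054152 to 90076089, plus strand) encodes an aminopeptidase. It stood at 81.5, 47.5 and 26.1 CPM in KO and at 36.5, 15.8, 41.9 and 42.1 CPM in WT. KO 1 and KO 2 were above every WT library and KO 3 was above WT 2 alone (log2 fold change 0.60 ± 0.46, SE).

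Ctsz (ENSMUSG00000016256, chromosome 2, 174427493 to 174439039, minus strand), a carboxypeptidase also called cathepsin X, stood at 204, 146 and 73.8 CPM in KO and at 145, 53.2, 85.4 and 81.0 CPM in WT. It had the smallest unadjusted p of the 9 genes in edgeR (0.164), with a log2 fold change of 0.63 ± 0.42 (SE) and a 95% interval of -0.31 to 1.57. KO 1 lay above every WT library, and KO 2 was barely above WT 1, the highest of them.

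Ctsd (ENSMUSG00000007891, chromosome 7, 142375911 to 142388038, minus strand), the main aspartic protease of lysosomes, stood at 550, 485 and 157 CPM in KO and at 551, 145, 314 and 312 CPM in WT. The groups covered nearly the same range, with a log2 fold change of 0.26 ± 0.52 (SE). Ctsa (ENSMUSG00000017760, chromosome 2, 164832873 to 164841032, plus strand), which also shields β-galactosidase and neuraminidase 1 from breakdown, stood at 149, 71.1 and 22.98 CPM in KO and at 123, 18.8, 57.8 and 86.6 CPM in WT. Its log2 fold change of 0.18 ± 0.70 (SE) was -0.61 without KO 1.

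The count of Ctsa may hold reads of Pltp and Neurl2, genes on the opposite strand that share exon positions with it, because the strand setting of the authors' counting is not stated in those sources. The phospholipid transfer protein gene Pltp had 154, 44 and 23 counts in KO and 28, 51, 63 and 71 in WT. Ctsb shares exon positions in the same way with Fdft1, Ctsl with Gm47123 and Ctsz with Nelfcd. On the same strand, Ctsd shares exon positions with Gm49369, which had 0 counts in all libraries. Ctsl does so with the processed pseudogene Gm49230, which had 3 counts in KO 1 and 0 in the others.

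**Figure D2:**
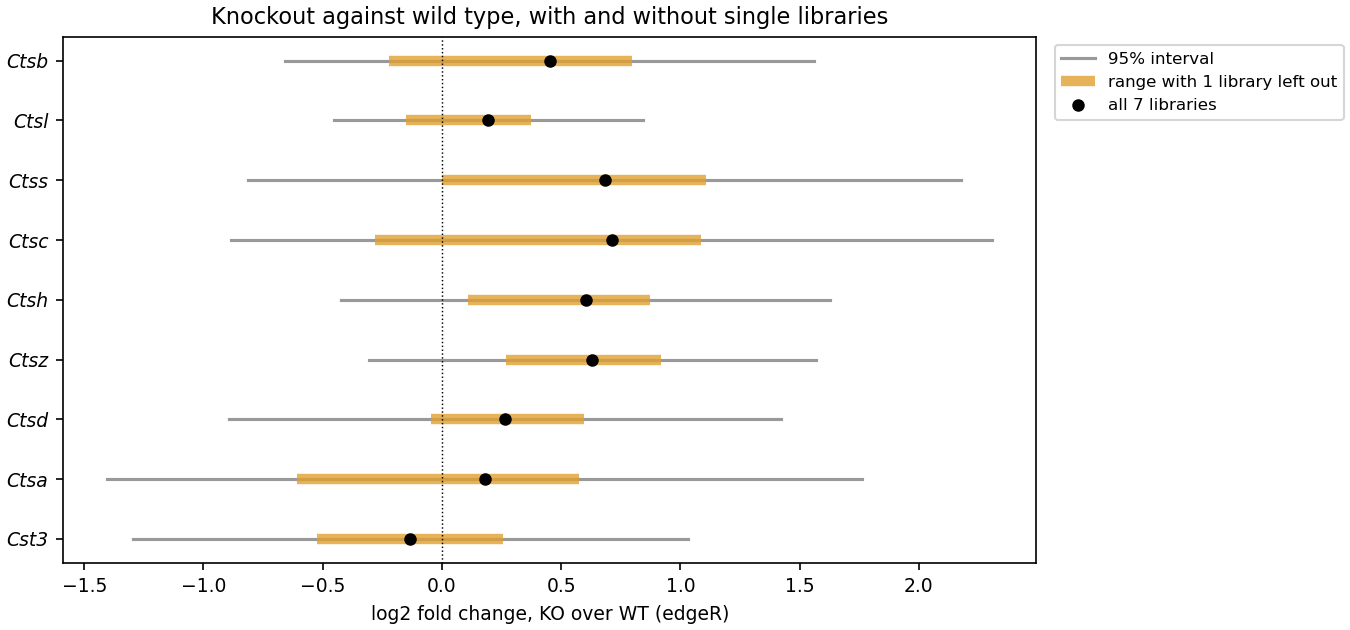
Log2 fold change of KO over WT (horizontal axis) for each gene from edgeR: dots are the values with all 7 libraries, thin lines the 95% interval and thick bars the range when any 1 library is left out. Every 95% interval includes 0, and the bars of Ctsh, Ctsz and Ctss lie above 0, the last by 0.00074.

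Of the 9 genes, the inhibitor cystatin C was the one with a log2 fold change below 0, and it was not called. Cst3 (ENSMUSG00000027447, chromosome 2, 148871722 to 148875692, minus strand) stood at 305, 258 and 58.6 CPM in KO and at 270, 142, 306 and 191 CPM in WT. KO 3 was the lowest of all 7 libraries, while KO 1 and KO 2 lay inside the WT range. The log2 fold change was -0.13 ± 0.52 (SE), with a 95% interval of -1.30 to 1.03, and it was 0.26 without KO 3 and 0.046 without WT 3.

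The ratio of the inhibitor's transcript level to that of its targets was taken within each library, where library size cancels, and compared between KO and WT. The 6 cysteine cathepsins (Ctsb, Ctsc, Ctsh, Ctsl, Ctss and Ctsz) summed to 2216, 1217 and 497 CPM in KO and to 1228, 494, 1036 and 847 CPM in WT. The ratio of Cst3 to that sum was 0.138, 0.212 and 0.118 in KO and 0.220, 0.287, 0.295 and 0.225 in WT. All 3 KO libraries lay below all 4 WT libraries, although KO 2 and WT 1 were separated by little. On the log2 scale the ratio was -2.73 ± 0.44 (SD, n = 3) in KO and -1.97 ± 0.22 (SD, n = 4) in WT, a difference of -0.75. The exact two-sided permutation p was 0.0286, the smallest that 3 against 4 libraries can give, and 0.0857 after adjustment over the 3 summed values compared, which does not pass. The genes were chosen with earlier results of these data known, and neither p takes that choice into account. With Ctsa and Ctsd added to the sum the adjusted exact p was 0.257, and the groups overlapped. Cst3 then took 7.97 to 12.7% of the counts of all 9 genes in KO and 12.4 to 17.8% in WT. Within the description stem shared by KO 1 and the 4 WT libraries, KO 1 was below all WT libraries; the other stem held KO libraries only. The summed cysteine cathepsins themselves did not differ beyond the spread (log2 difference 0.37, exact permutation p = 0.6), nor did all 9 genes together (0.23, exact permutation p = 0.771).

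**Figure D3:**
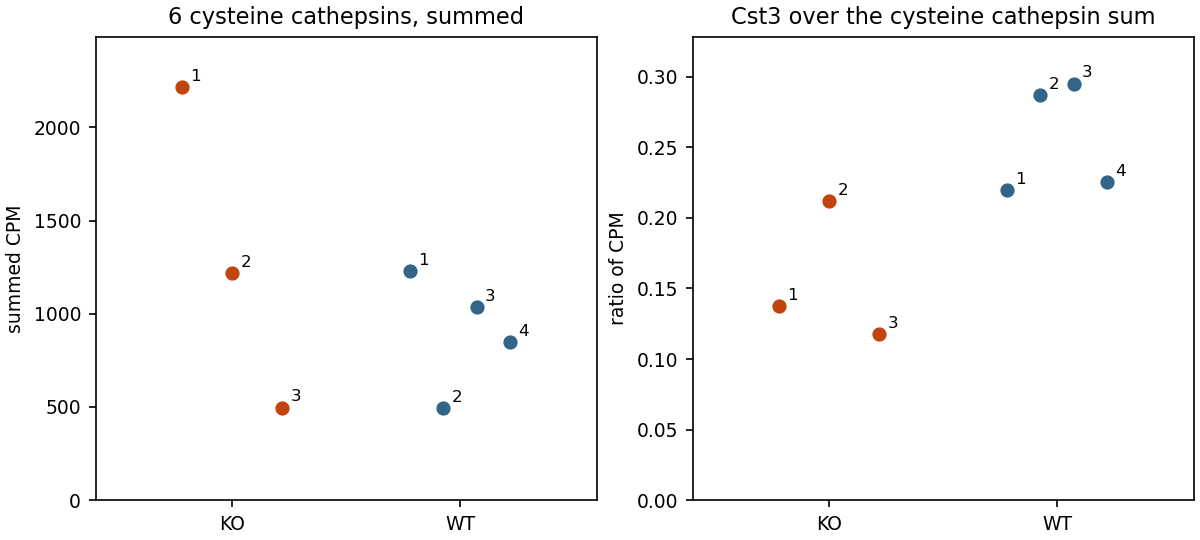
Summed CPM of the 6 cysteine cathepsins (left panel) and the ratio of Cst3 to that sum (right panel) in KO and WT libraries, both axes from 0, with replicate numbers beside the points. The sums overlap, while the KO ratios (0.118 to 0.212) lie below the WT ratios (0.220 to 0.295).

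The 9 genes together took 0.315% of all counts in KO 1 (Wilson 95% interval 0.311 to 0.320%), 0.205% in KO 2 and 0.0706% in KO 3 (0.0684 to 0.0729%), against 0.201% in WT 1, 0.0903% in WT 2 (0.0879 to 0.0928%), 0.173% in WT 3 and 0.139% in WT 4. These intervals cover counting error only. The shares of Ctsl and Ctss differed between the smallest pools, those of KO 3 and WT 2, and the others. Ctsl made up 14.1% of the pool in KO 3 and 12.8% in WT 2, against 4.4 to 5.43% in the other KO libraries and 5.46 to 7.17% in the other WT libraries. Ctss went the other way, with 14.3% in KO 3 and 13.3% in WT 2, against 23.5 to 25.4% in the other KO libraries and 19.1 to 20.3% in the other WT libraries. Ctsb stayed between 20.1 and 24.8% in KO and between 19.6 and 25.8% in WT. In bulk samples, fewer cells of a type and less RNA per cell cannot be told apart.

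**Figure D4:**
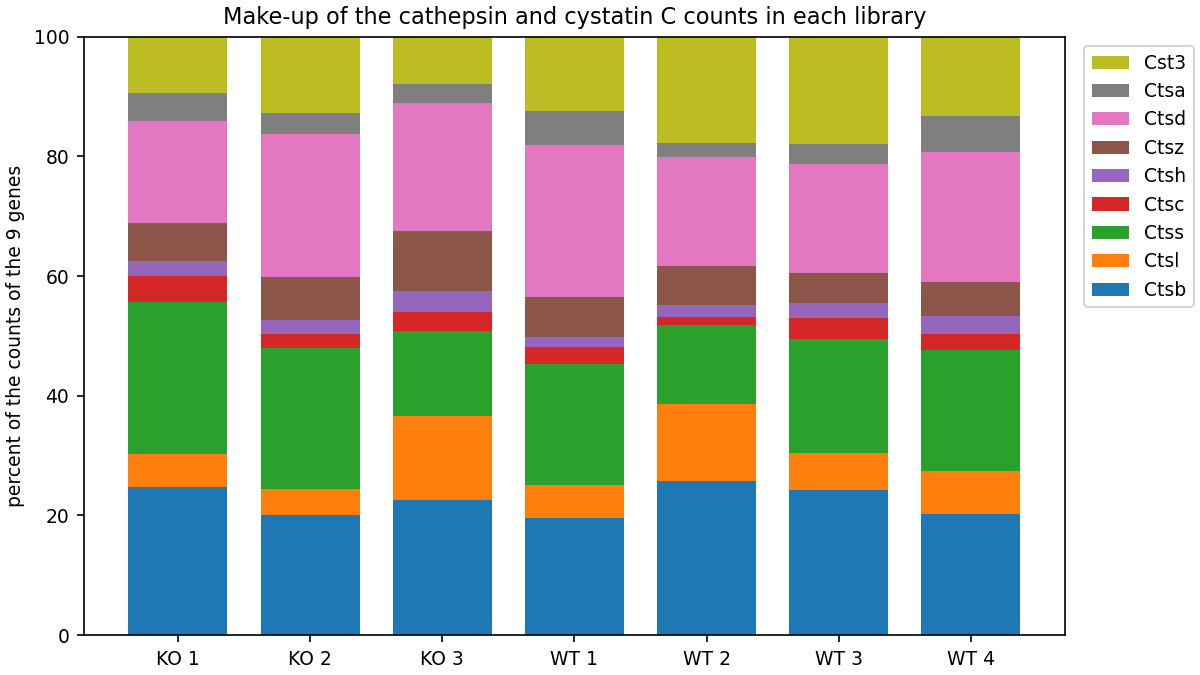
Percent of the counts of the 9 genes (vertical axis) that each gene took in each KO and WT library. The Ctsl segment is widest in KO 3 (14.1%) and WT 2 (12.8%), where the Ctss segment is narrowest among the libraries of its group.

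Levels of the members were set against markers of the cells the libraries could hold. Of the 17 macrophage and monocyte markers, all were tested, 0 were called and 17 had a log2 fold change above 0 (median 0.81, against 0.01 over all tested genes); their summed level ran from 386 to 2344 CPM in KO, highest in KO 1, and from 312 to 1352 CPM in WT. Without KO 1 the median was -0.029. Apoe, an apolipoprotein gene that macrophages express strongly, was the 1 marker of the 17 with an unadjusted p under 0.05 in edgeR (0.0453), at 359.8, 224 and 106 CPM in KO and at 116, 61.5, 127 and 154 CPM in WT. C1qb, part of complement C1q of tissue macrophages, had the next smallest p and stood at 161, 66.5 and 31.5 CPM in KO and at 15.8, 15.5, 46.5 and 52.2 CPM in WT. Cd14, the marker of highest level, was highest in WT 1, with a log2 fold change of 0.24. It stood at 573, 378 and 53.8 CPM in KO and at 718, 53.9, 236 and 126 CPM in WT. Of the 14 mature neutrophil markers, 4 lay above 0 and 10 below (median -0.12), and 0 were called. The dendritic cell marker Clec9a had 0 counts in all libraries, and of the 7 dendritic cell markers Flt3 and Ccr7 passed the filter. Flt3 and Ccr7 had log2 fold changes of -0.30 and -1.25 (median -0.77), and 0 were called.

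Markers of other cells also varied between libraries, and 0 of them were called. Of 5 tested stromal and epithelial markers 4 lay above 0 (median 0.65), and their summed level was 153 to 247 CPM in KO and 92.8 to 282 CPM in WT. The groups did not overlap for 2 of these 5, where 3.13% of all tested genes did not. The 2 were Sparc, a matrix protein gene, with an unadjusted p of 0.0311 in edgeR, and Pecam1, an endothelial adhesion gene, with 0.0322. Sparc stood at 37.7, 28.8 and 34.7 CPM in KO and at 14.6, 27.9, 8.54 and 12.97 CPM in WT. All 5 tested neutrophil precursor markers lay above 0 (median 0.65), with a sum of 60.6 to 1031 CPM in KO and 63.1 to 1116 CPM in WT. Of 7 tested B cell markers 6 lay above 0 (median 0.57), with a sum of 275 to 446 CPM in KO and 123 to 581 CPM in WT. Of 10 tested T cell markers 8 lay above 0 (median 0.16). The part of these cells in the levels of the 9 genes was not tested.

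The order of the libraries by Ctsh was the order by the macrophage and monocyte score, the mean log2 CPM of the 17 markers. Over the 7 libraries r was 0.955 (exact permutation p = 0.000198, the smallest that 7 libraries can give, adjusted p = 0.00357 over 18 relations) and rho was 1 (exact p = 0.000397, adjusted p = 0.00714). Without KO 1 and WT 2, the libraries farthest from the median score, r was 0.997. Ctsd was the gene closest to the mature neutrophil score, with r = 0.973 (exact permutation, adjusted p = 0.0107), rho = 0.929 (adjusted exact p = 0.0607, which does not pass) and r = 0.902 without KO 3 and WT 2. Ctsl passed with neither score, with r = 0.652 for macrophages (adjusted exact p = 0.131), which turned to -0.39 without KO 1 and WT 2, and r = 0.372 for neutrophils (adjusted exact p = 0.448).

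Of the 18 relations, the 9 genes with both scores, 15 passed by Pearson's r, and by rank Ctsh with the macrophage score alone. The share of all tested genes that would pass was not computed, so this count is not read as particular to the 9 genes. Ctss gave r = 0.917 with the macrophage score and 0.933 with the neutrophil score (adjusted exact p = 0.0214 for each), and 0.843 and 0.580 without the 2 outlying libraries of each score. Cst3 gave r = 0.726 (adjusted exact p = 0.0844) and 0.880 (0.0214), and the second was 0.332 without KO 3 and WT 2. The first was 0.858 without KO 1 and WT 2, where rho was 0.2. With the macrophage score, r for Ctsz was 0.811 and came to 0.408 without KO 1 and WT 2. The relations of Ctsb, Ctsc and Ctsh with the neutrophil score also rested on KO 3 and WT 2, since r fell to 0.454, 0.427 and 0.0783 without them. The scores themselves went together (r = 0.738, exact p = 0.0546; rho = 0.607, exact p = 0.167), and no r was computed within the description stems, which held 5 and 2 libraries. The values without 2 libraries likewise rest on 5. The part of macrophage and neutrophil RNA in the differences between libraries was not tested.

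**Figure D5:**
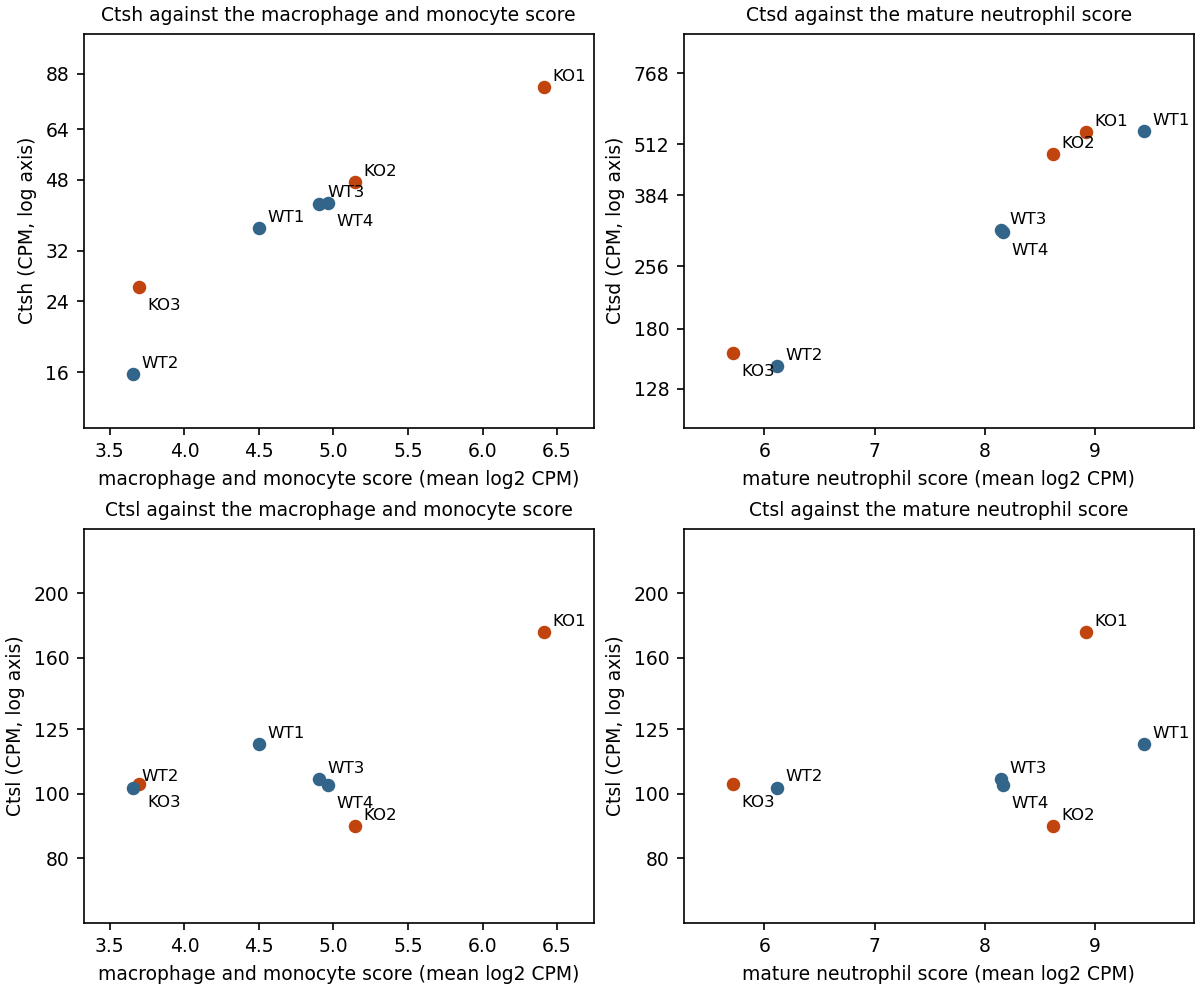
CPM of Ctsh, Ctsd and Ctsl (vertical, log axes) against the macrophage and monocyte score or the mature neutrophil score (horizontal, mean log2 CPM) in KO (red) and WT (blue) libraries. Ctsh rises with the macrophage score in every step and Ctsd with the neutrophil score in most, while Ctsl is flat apart from KO 1.

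Other genes of the lysosome did not pass either. Of 30 soluble lysosomal enzymes and partners, all tested, 0 were called, 20 lay above 0 and 10 below, with a median log2 fold change of 0.21. Psap, which encodes the saposin precursor, stood at 2153, 1565 and 977 CPM in KO and at 2027, 729, 987 and 1483 CPM in WT. Ids, iduronate sulfatase, was the only one of the 30 whose groups did not overlap, where 3.13% of all tested genes did not. It stood at 38.3, 43.8 and 31.5 CPM in KO and 27.8, 29.1, 27.8 and 19.9 CPM in WT, but its unadjusted p in edgeR was 0.103. Grn, which encodes the progranulin that lysosomal proteases cut into granulins, stood at 464, 657 and 293 CPM in KO and at 526, 282, 279 and 229 CPM in WT.

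Of 20 lysosomal membrane genes, 0 were called, 13 lay above 0 and 7 below (median 0.08). Laptm5, a lysosomal membrane protein of blood cells, stood at 1022, 769 and 558 CPM in KO and at 1168, 501, 711 and 855 CPM in WT. Npc1, the cholesterol exporter, stood at 141, 115 and 14.996 CPM in KO and at 75.9, 34.3, 67.3 and 44.2 CPM in WT, with KO 3 again lowest. Of 11 sorting genes, 0 were called, 6 lay above 0 and 5 below (median 0.02). The sorting receptor Sorl1 stood at 752, 392 and 29.99 CPM in KO and at 644, 107, 423 and 239 CPM in WT, lowest in KO 3 and WT 2. For Igf2r, the cation-independent mannose 6-phosphate receptor, the KO over WT log2 value was -0.28 ± 0.27 (SE). Nagpa, the uncovering enzyme of the mannose 6-phosphate tag, was higher in KO without overlap. It was 1 gene of the 11, where 3.13% of all tested genes did not overlap. Nagpa stood at 46.5, 56.4 and 39.5 CPM in KO and 32.3, 33.0, 17.7 and 37.6 CPM in WT, with an unadjusted p of 0.0774 in edgeR. Gnptg, with the next smallest unadjusted p of the 11 (0.175 in edgeR), had a log2 fold change of -0.86. Of the 4 MiT/TFE factors, Tfeb, Tfe3 and Mitf were tested and 0 were called. Tfe3 stood at 70.4, 62.2 and 7.98 CPM in KO and at 102, 13.9, 31.2 and 38.1 CPM in WT, lowest in KO 3 and WT 2.

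The 3 tested cathepsins outside the 9 summed to 18.1 to 51.3 CPM in KO and 19.7 to 36.5 CPM in WT. Ctsf had 0 counts in all 7 libraries, Ctsw too few to test, and Ctse, Ctsk and Ctso were tested with 0 called. Ctsk, the collagen-degrading protease of osteoclasts, stood at 16.3, 2.14 and 11.9 CPM in KO and at 5.08, 9.55, 2.58 and 8.74 CPM in WT. Among 7 tested cystatins and stefins, cytosolic and secreted inhibitors of the same enzymes, 0 were called. Cstb stood at 277, 144 and 134 CPM in KO and at 227, 78.8, 188 and 240 CPM in WT. All 7 genes of the MHC class II pathway that Ctss serves had log2 fold changes above 0 (median 0.78) and 0 were called; its substrate Cd74 stood at 400, 143 and 98.2 CPM in KO and at 205, 54.0, 214 and 111 CPM in WT. That median was -0.23 without KO 1.

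The genes whose pattern over the 7 libraries was most like the mean of the 9 were Tgfbi (r = 0.989), B4galt3 (0.986), Fchsd2 (0.985), Fcgr3 (0.984) and Atp11a (0.982), among 8978 other tested genes that met the same level of log2 CPM, 3 or more. Such likeness was common, since 479 of these genes (5.34%) had r above 0.9. Such likeness was rarest for Ctsl, with 16 genes (0.178%), the closest being Chm (r = 0.959), and for Ctsh, with 43 (0.479%), the closest being Ngly1 (r = 0.984). For Ctsd, 812 genes (9.04%) had r above 0.9, with Flii closest (r = 0.995). The closest gene to Cst3 was Rbms1 (r = 0.996), at 465, 295 and 22.2 CPM in KO and 369, 93.0, 387 and 166 CPM in WT, to Ctss Rnf13 (r = 0.989), and to Ctsz the galectin gene Lgals3 (r = 0.992). These r values describe 7 libraries that share depth and scaling for all genes.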

How the data were processed

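The authors deposited 1 table of estimated counts per Ensembl gene for 7 libraries, stored as whole numbers, so no rounding was needed. RSEM 1.2.3, DESeq2 and the mm10 build are named, per the submitters' processing notes, without saying what each did. The sources used here do not give the annotation release or the strand setting. Of 51789 genes, 51596 matched a symbol in GENCODE M21 (GRCm38), whose coordinates are 1-based. The labels do not say whether replicates came from separate animals, so each p-value reflects the spread between libraries. Replicates differed beyond counting noise (chi-square per degree of freedom 23.9 to 128), and sex-linked transcripts set KO 1 apart from KO 2 and KO 3. The Wilson intervals of the shares of counts cover counting error only. They treat each count as independent, which could not be checked without molecular identifiers. The intervals of the fold changes come from the edgeR fit and reflect the spread between libraries.

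The fit was edgeR 4.0.16 in R 4.3.3 on 12506 genes kept by filterByExpr: TMM scaling, robust quasi-likelihood F test, Benjamini-Hochberg adjustment over all genes, call at 0.05. SE is the log2 fold change over the root of F. Log2 CPM carries a prior count of 2. Summed levels used exact permutation of 35 splits, and correlations every order of the libraries (numpy 2.4.6, scipy 1.17.1). The test was checked on simulated counts. Named genes were the 9 members, from each other list the 2 of highest level and the 2 of smallest p (fewer where not needed), and the genes of most similar pattern; Elane, Gzmc, Mcpt8, Epx, Clec9a, Ctsf, Ctsw, Ctsg, Flt3, Ccr7, Gzma, Pltp and the genes that share exons were named for their counts, and Cd74 as the substrate of Ctss. The members and lists were chosen with earlier results of these data known. Alternatives were DESeq2 1.42.0, limma-voom (limma 3.58.1) with quality weights, other scalings and filters, leaving out libraries, the replicate block and the description stem as a covariate.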

Additional observations from a re-analysis of the deposited data

Results flagged for a closer look

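Of 12 sets of WT values checked, the 9 genes and 3 summed values, 1 had a library far from the others. Ctsh in WT 2, at 15.8 CPM, stood below 36.5 to 42.1 CPM in the other WT libraries, with a gap of 0.852 of the group's range on the log2 scale, past Dixon's limit for 4 samples. Chance gives about 1 such gap in 20 groups. WT 2 was also the WT library with the lowest macrophage score, 3.66, and the lowest mature neutrophil score, 6.12; the part of these in the value was not tested. With 3 libraries, KO was not checked.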

How the results depend on the processing

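DESeq2 called 1 gene, a pseudogene that is no member, where edgeR called 0. The counts of genes with an unadjusted p below 0.05 were 154 in edgeR, 213 in DESeq2 and 534 in limma-voom, the last with 1 member, Ctsz. Without KO 3 there were 2 such members in edgeR, among 445 of 12965 genes, and without WT 1 there was 1, among 305 of 12238. No member was called in any setting (smallest adjusted p = 0.888), and leaving out any 1 library gave 0 calls over all genes, the members and the other lists. Of 144 member and setting pairs, 10 changed direction. With the description stem as a covariate, which leaves KO 1 against WT, the other 8 members ran from 0.71 (Ctsl) to 1.704 (Ctsc) and Cst3 turned to 0.43. Cst3 also turned to 0.096 without WT 2 and KO 3 together. With 1 library left out, log2 fold changes ran from -0.61 to 0.58 for Ctsa, -0.22 to 0.80 for Ctsb, -0.28 to 1.09 for Ctsc, -0.044 to 0.60 for Ctsd, 0.11 to 0.87 for Ctsh, -0.15 to 0.37 for Ctsl, 0.00074 to 1.11 for Ctss, 0.27 to 0.92 for Ctsz and -0.52 to 0.26 for Cst3. The lowest value of each of the 9 came without KO 1. Ctsa was -0.14 without WT 2, and Cst3 0.046 without WT 3. The summed level difference of the 9 genes ran from -0.23 (without KO 1) to 0.83, of the cysteine cathepsins from -0.13 (without KO 1) to 0.94, and of the Cst3 ratio from -0.999 to -0.58; without WT 2 the 9 genes gave -0.051. Ctsl against the macrophage score gave r = -0.39 without KO 1 and WT 2. Of the 18 relations, 15 passed by r with RLE factors and 15 with a prior count of 0.5. RLE and upper-quartile factors left the direction of every member as it was.

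Replicate numbers pair no samples by the labels. Deviations from the group means correlated at 0.349, -0.225 and -0.184 for numbers 1 to 3, and the fit with the replicate block made 0 calls. The causes of these changes were not tested.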
